A study of Mus musculus with 6 samples.

Results

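The HOX genes described here are the protein-coding rows of the deposited table whose symbol is Hox, a cluster letter from a to d and a number, 39 of 47122 gene models. The rule reads names and no measured value, and the genes form 4 clusters. The 11 Hoxa genes lie on chromosome 6 between positions 52132347 and 52237865 on the minus strand. The 10 Hoxb genes lie on chromosome 11 (96085142 to 96259080), the 9 Hoxc genes on chromosome 15 (102829566 to 102945281) and the 9 Hoxd genes on chromosome 2 (74498569 to 74595486), all on the plus strand (GRCm39 coordinates of the table).

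HOX genes encode homeodomain transcription factors that give cells a position along the head-to-tail axis. Within a cluster, genes with low paralog numbers sit at the 3′ end and are active early and toward the head, and genes with high numbers sit at the 5′ end and are active later and toward the tail. Genes that share a number in different clusters (paralogs) descend from a common ancestor gene. In the female tract, Hoxa9, Hoxa10, Hoxa11 and Hoxa13 are known for successive segments of the Müllerian duct, from oviduct through uterus to vagina, and the ovary lies outside that series.

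The samples are mouse ovaries taken at 1 dpp (day post partum) and measured by RNA sequencing, 3 of wild-type genotype (WT) and 3 labelled BCAS2 cKO, in which Bcas2, a subunit of a splicing complex, was knocked out in oocytes. Values are FPKM, fragments scaled by gene length and by library size, so levels of different genes can be set side by side. The driver of the deletion, and whether a sample is 1 animal or a pool, is not named in the sources used here. A p-value therefore reflects sample-to-sample spread alone, part of which may be technical. A description label mentions granulosa cells, but tissue, title and design give ovary, and the ovarian markers Foxl2 (82.3 to 163.2 FPKM) and Figla (83.5 to 148.7 FPKM) were present in all 6 libraries.

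The libraries held 16800421 to 19565275 reads, recovered from the FPKM and gene lengths, and 1 read on 1 kb was worth 0.0512 to 0.0594 FPKM. Bcas2 was at 54.5, 37.5 and 35.7 FPKM in WT, against 18.9, 21.9 and 18.3 FPKM in cKO, lower in every cKO library, with a log2 fold change of −1.05 (SE 0.17) that did not pass over all genes (adjusted p = 0.955 in limma). WT replicate 1 stood apart in cell type markers. Its 8 stroma markers (fibroblast-like cells between follicles) summed to 1112 FPKM, against 338.1 to 549.8 FPKM in the other 5 libraries, and its 8 endothelial markers to 155.0 FPKM, against 36.02 to 55.2 FPKM. Its 8 surface epithelium markers summed to 314.2 FPKM, against 605.0 to 756.5 FPKM. In whole tissue, fewer cells of a type and less RNA per cell cannot be told apart, and group differences that this library decides are given also without it. cKO replicate 2 stood apart in 5 erythroid markers, which summed to 12649 FPKM, against 374.0 to 1143 FPKM in the other 5 libraries, and in total FPKM, at 403703 against 343995 to 363209. Its part in the HOX values was not tested beyond leaving it out.

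The newborn ovary expressed HOX genes of the middle of the clusters, above all Hoxd9 and Hoxd8, and little of the genes at either end. Of the 39 genes, 36 had at least 1 read in some library, 21 reached 1 FPKM in some library, and 17 passed the filter on low values, which asked for at least 1 FPKM in at least 3 of the 6 libraries. The 15 genes numbered 4 to 8 held 60.7% of the summed HOX level on average and the 7 genes numbered 9 and 10 held 32.9%. The 8 genes numbered 1 to 3 held 5.73%, and the 9 genes numbered 11 to 13 held 0.709%. By cluster, Hoxd genes held 51.1% (46.2 to 55.1% over the libraries) and Hoxc genes 31.7% (25.5 to 36.2%). Hoxb genes held 10.6% (9.85 to 11.8%) and Hoxa genes 6.63%. The order of the 4 clusters was the same in every library.

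**Figure D1:**
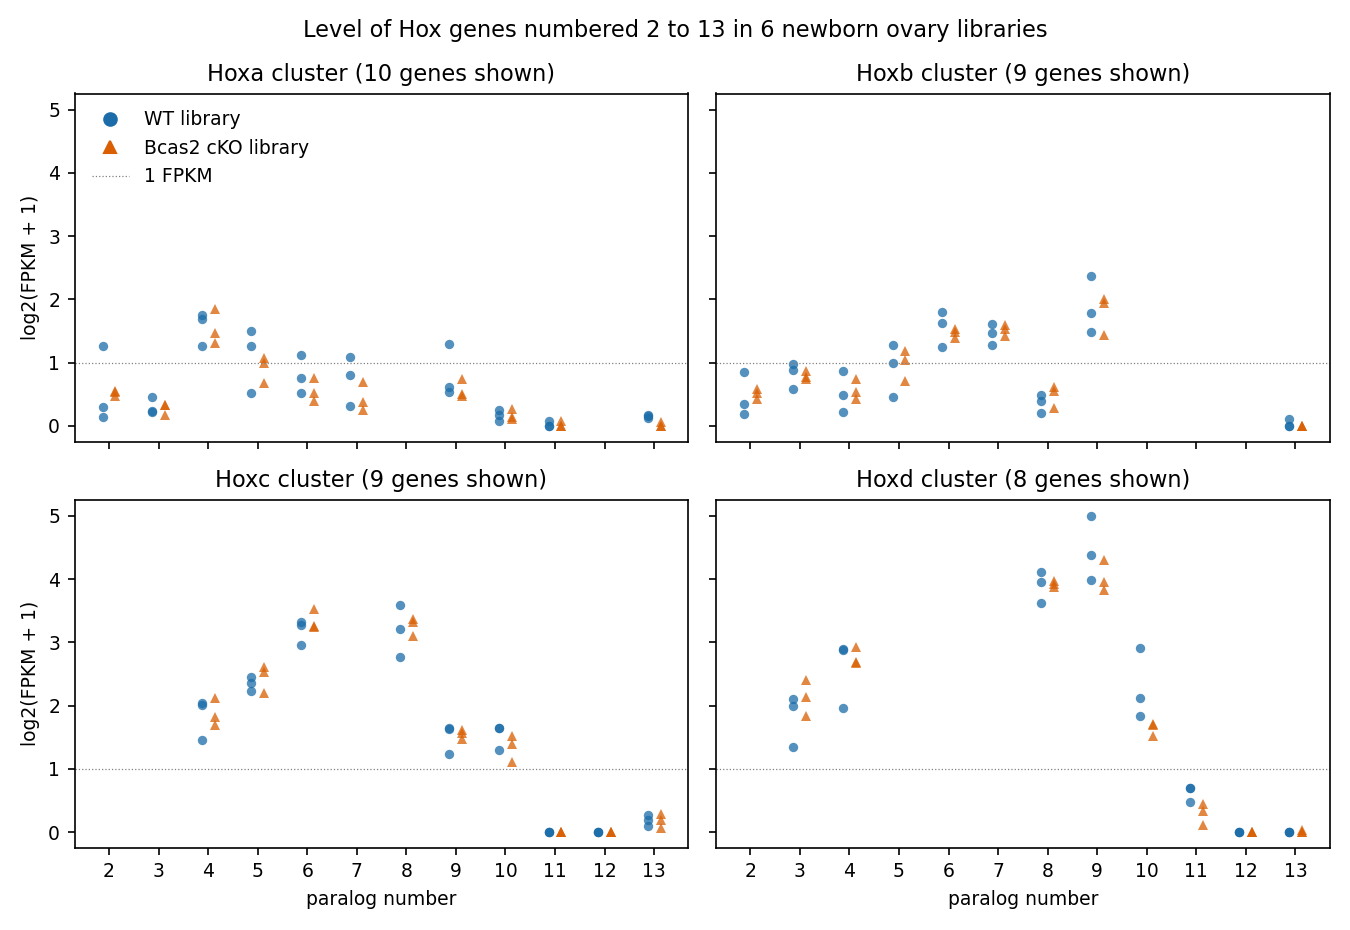
Level of each HOX gene numbered 2 to 13, as log2(FPKM + 1), against its paralog number, in 1 panel per cluster; circles are the 3 WT libraries, triangles the 3 cKO libraries, and the dotted line is 1 FPKM. The Hoxd and Hoxc panels reach the highest levels between numbers 4 and 10, and all points of genes 11 to 13 lie below 1 FPKM in the 4 panels.

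The gene with the highest mean was Hoxd9 (chromosome 2, 74528107 to 74530552), a gene of the posterior trunk and limb. It stood at 31.1, 19.9 and 14.8 FPKM in WT replicates 1, 2 and 3 and at 13.2, 14.5 and 18.7 FPKM in cKO replicates 1, 2 and 3. WT replicate 1 was far above the rest, and the other 2 WT values lay within or just above the cKO range. Next came Hoxd8 (74534959 to 74538277), its 3′ neighbour, at 14.5, 16.2 and 11.3 FPKM in WT, against 14.7, 13.7 and 14.2 FPKM in cKO. The 3 cKO values of Hoxd8 lay inside the WT range. Hoxd9 was above Hoxd8 in 5 of 6 libraries, the exception being cKO replicate 1, and their ranges overlapped, so these neighbours in the order did not separate. Hoxd8 was above the next gene, Hoxc6, in all 6 libraries with no overlap of ranges, at 1.63 times its mean.

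Sequence upstream of 4 Hoxd genes is shown because their levels ran from the highest of all 39 to none, within 1 cluster. Each is the 250 bases before the RefSeq start of the gene on the plus strand of chromosome 2 (GRCm38.p6, a different build from the table, with no conversion made): Hoxd8 chr2:74704365-74704614, Hoxd9 chr2:74697513-74697762, Hoxd10 chr2:74691641-74691890 and Hoxd12 chr2:74674763-74675012. The Hoxd8, Hoxd9 and Hoxd12 windows lie at a shared offset from the gene starts of the expression table. By that offset the Hoxd10 window falls inside the longer Hoxd10 model measured here, not before its start. Capitals mark CCAAT, read on either strand.
Hoxd8: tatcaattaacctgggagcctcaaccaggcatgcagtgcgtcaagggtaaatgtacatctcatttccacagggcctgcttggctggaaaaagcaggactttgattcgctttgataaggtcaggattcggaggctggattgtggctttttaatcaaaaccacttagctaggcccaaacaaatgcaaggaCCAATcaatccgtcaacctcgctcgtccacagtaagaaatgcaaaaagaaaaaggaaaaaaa
Hoxd9: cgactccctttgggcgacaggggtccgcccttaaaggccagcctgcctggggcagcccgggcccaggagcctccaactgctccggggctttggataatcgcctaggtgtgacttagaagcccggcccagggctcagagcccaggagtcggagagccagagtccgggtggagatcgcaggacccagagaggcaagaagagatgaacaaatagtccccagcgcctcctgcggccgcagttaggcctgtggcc
Hoxd10: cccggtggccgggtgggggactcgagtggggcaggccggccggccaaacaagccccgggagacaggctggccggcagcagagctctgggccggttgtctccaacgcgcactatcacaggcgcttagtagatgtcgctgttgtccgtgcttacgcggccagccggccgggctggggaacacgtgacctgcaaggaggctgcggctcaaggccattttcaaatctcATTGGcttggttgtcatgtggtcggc
Hoxd12: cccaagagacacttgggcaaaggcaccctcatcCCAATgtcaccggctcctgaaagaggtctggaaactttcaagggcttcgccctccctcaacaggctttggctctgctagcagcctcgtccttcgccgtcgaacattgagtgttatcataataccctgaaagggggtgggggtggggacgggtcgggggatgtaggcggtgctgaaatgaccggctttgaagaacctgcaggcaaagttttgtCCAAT

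The windows differed in base composition: Hoxd8, at 14.1 FPKM on average, had 44.4% G and C and 6 CpG dinucleotides, whereas Hoxd9 (18.7 FPKM) had 65.2% and 13, Hoxd10 (3.14 FPKM) 65.6% and 20, and Hoxd12 (no read in any library) 55.6% and 10. Over the 24 windows of the 22 HOX genes found in the RefSeq table, the median was 12.5 CpG, against 6 over all 32851 windows of that table. On both strands 4 motifs were searched, and matches of different motifs may overlap. CCAAT, the box bound by NF-Y, was in 14 of the 24 HOX windows and in 33.8% of all windows. TATAAA was in 4 of 24 and 12.4%, TGATNNAT, a joint site of HOX and PBX proteins, in 4 of 24 and 7.68%, and TTTATG, a core bound by caudal factors, in 5 of 24 and 10.8%. Of the sequences shown, Hoxd12 had 2 CCAAT matches, Hoxd8 and Hoxd10 1 each and Hoxd9 none, and the other 3 motifs had no match in any of them. A match is a run of letters and says nothing of binding.

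Hoxc genes numbered 4 to 8 made up most of the next ranks. Hoxc6 (chromosome 15, 102906658 to 102920314) stood at 8.95, 8.67 and 6.79 FPKM in WT, against 10.5, 8.44 and 8.56 FPKM in cKO. Hoxc8 (102898971 to 102902707), known for its role in thoracic segments, stood at 8.26, 10.99 and 5.78 FPKM in WT, against 9.36, 8.97 and 7.59 FPKM in cKO. These neighbours overlapped in range, with Hoxc6 above Hoxc8 in 4 of 6 libraries, and in both genes WT replicate 3 was the lowest library. Hoxc5 stood at 4.14, 4.47 and 3.71 FPKM in WT, against 5.10, 4.79 and 3.60 FPKM in cKO. Hoxc4 stood at 3.10, 3.05 and 1.73 FPKM in WT, against 3.33, 2.52 and 2.23 FPKM in cKO. The level was lower again toward the 5′ end of that cluster. Hoxc9 stood at 2.11, 2.12 and 1.34 FPKM in WT, against 1.95, 2.05 and 1.77 FPKM in cKO. Hoxc10 was between 1.16 and 2.14 FPKM, Hoxc11 and Hoxc12 had no read, and Hoxc13, a gene of hair and nail formation, had at most 10 reads in a library.

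The 3′ Hoxd genes Hoxd4 and Hoxd3, which act in neck and upper spine, were also among the higher members. Hoxd4 (chromosome 2, 74552322 to 74559504) stood at 6.41, 6.37 and 2.88 FPKM in WT, against 6.56, 5.48 and 5.38 FPKM in cKO. Hoxd3 (74542337 to 74578615) stood at 2.99, 3.31 and 1.55 FPKM in WT, against 4.32, 3.40 and 2.55 FPKM in cKO. In both, WT replicate 3 was lowest and cKO replicate 1 highest, and the groups overlapped. The model of Hoxd3 spans all 7183 bases of Hoxd4 on the same strand, so reads could be shared between these rows.

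Hoxb and Hoxa genes stayed low, with a maximum of 4.16 FPKM over both clusters. Hoxb9, which shapes thoracic segments, stood at 4.16, 2.43 and 1.80 FPKM in WT, against 3.003, 2.84 and 1.72 FPKM in cKO. Hoxa4 stood at 2.36, 1.39 and 2.24 FPKM in WT, against 1.76, 2.60 and 1.48 FPKM in cKO. In both genes the groups overlapped. Hoxb9 was highest in WT replicate 1, and Hoxa4 in cKO replicate 2. Hoxb6 (1.37 to 2.501 FPKM) and Hoxb7 (1.42 to 2.07 FPKM) were the other Hoxb genes above 1 FPKM in every library, and Hoxb5 (0.378 to 1.43 FPKM) and Hoxa5, a gene of lung and trunk patterning (0.436 to 1.83 FPKM), crossed that level in some. The neighbouring Hoxa3 overlaps Hoxa4, Hoxa5 and Hoxa6 on the same strand, and Hoxb3 overlaps Hoxb4.

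Among the 22 genes that did not pass the filter, the highest single value was 1.46 FPKM, of Hoxa9 in WT replicate 1. With Hoxa2, Hoxa6 and Hoxa7 it was 1 of 4 such genes that reached 1 FPKM, each in that library only, whereas Hoxa5 and Hoxb5, just inside the filter, reached it in 3 libraries each. The segment genes of the Müllerian duct were at low levels or near 0. Hoxa9 was at 0.392 to 1.46 FPKM, Hoxa10 had at most 11 reads in a library, Hoxa11 at most 2 and Hoxa13 at most 3. Of the genes for the tail and limb ends, Hoxd12 had no read, Hoxd13 and Hoxb13 at most 1 and 2 reads. At the head end, Hoxb1, a hindbrain gene, had 1 read in 1 library and Hoxd1 at most 4 reads. For Hoxd12, Hoxc11 and Hoxc12, which had no read, a count of 0 allows up to 3 reads in a library, so they were not detectable at this depth rather than shown to be absent, and such limits cover counting error only.

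**Figure D2:**
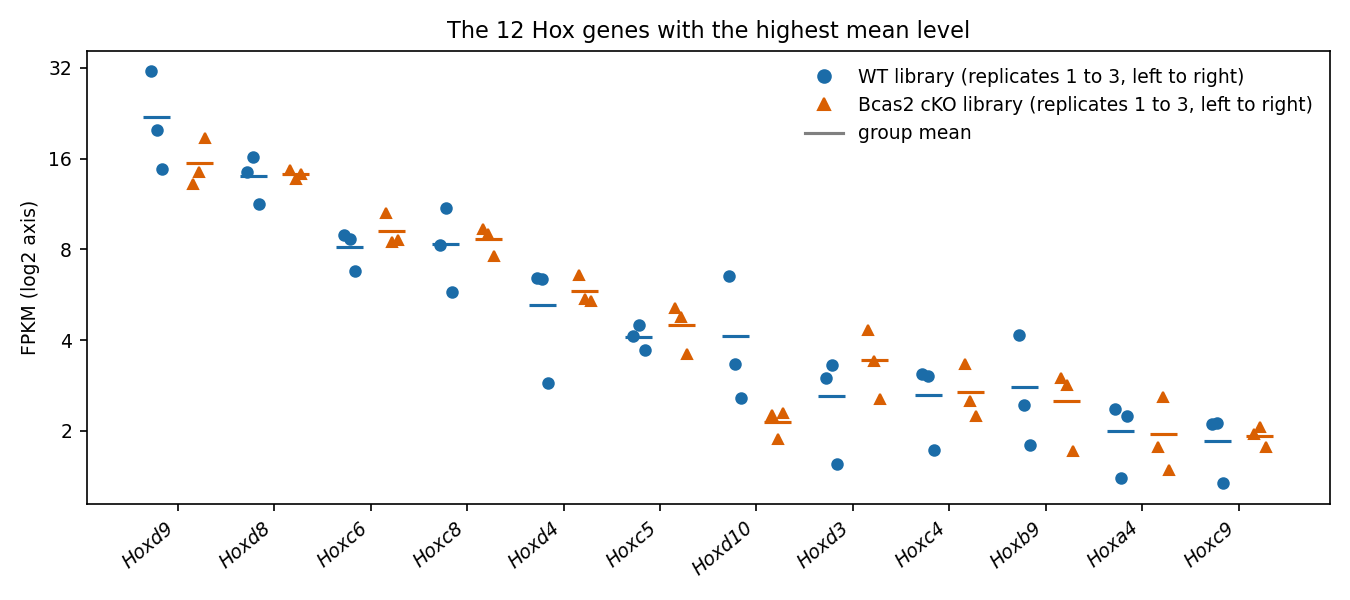
FPKM on a log2 axis for the 12 HOX genes with the highest mean over the 6 libraries; circles are WT libraries, triangles cKO libraries, in the order of replicates 1 to 3 from left to right, and lines are group means. Hoxd10 is the gene here whose groups do not overlap (2.57 to 6.53 FPKM in WT, against 1.88 to 2.29 FPKM in cKO).

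The comparison of cKO with WT asks whether HOX levels in the ovary differ when oocytes lack Bcas2. No HOX gene passed the test. Among the 17 genes tested with limma on log2(FPKM + 1), 0 rose and 0 fell at a Benjamini-Hochberg adjusted p under 0.05, as for all 14589 genes tested, of which 0% were called. Their adjusted p lay between 0.955 and 0.992. At an unadjusted p under 0.05 there were 0 of 17 HOX genes, where 3.04% of all genes had one (1.14% with a lower level in cKO), and the smallest was 0.0512. The log2 fold change was above 0 in 10 genes and below 0 in 7, where 51.3% of all tested genes were below 0. It ran from −0.64 to 0.31 with a median of 0.04 (−0.02 after rescaling to TPM, transcripts per library of fixed total), against −0.01 over all genes. The unadjusted 95% intervals reached 0.32 to 0.66 to either side, so changes within these bounds were not detectable here. They set no limit for the adjusted test, in which larger changes also went uncalled, such as −1.05 for Bcas2. By cluster the medians were −0.11 for the 2 tested Hoxa genes, −0.01 for 4 Hoxb genes, 0.06 for 6 Hoxc genes and 0.03 for 5 Hoxd genes. Without WT replicate 1 the 2 Hoxa estimates were 0.07 and 0.01, and the 4 Hoxb estimates ran from −0.05 to 0.16. The median over HOX genes was −0.13 without WT replicate 3 and between 0.01 and 0.13 without any other library.

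**Figure D3:**
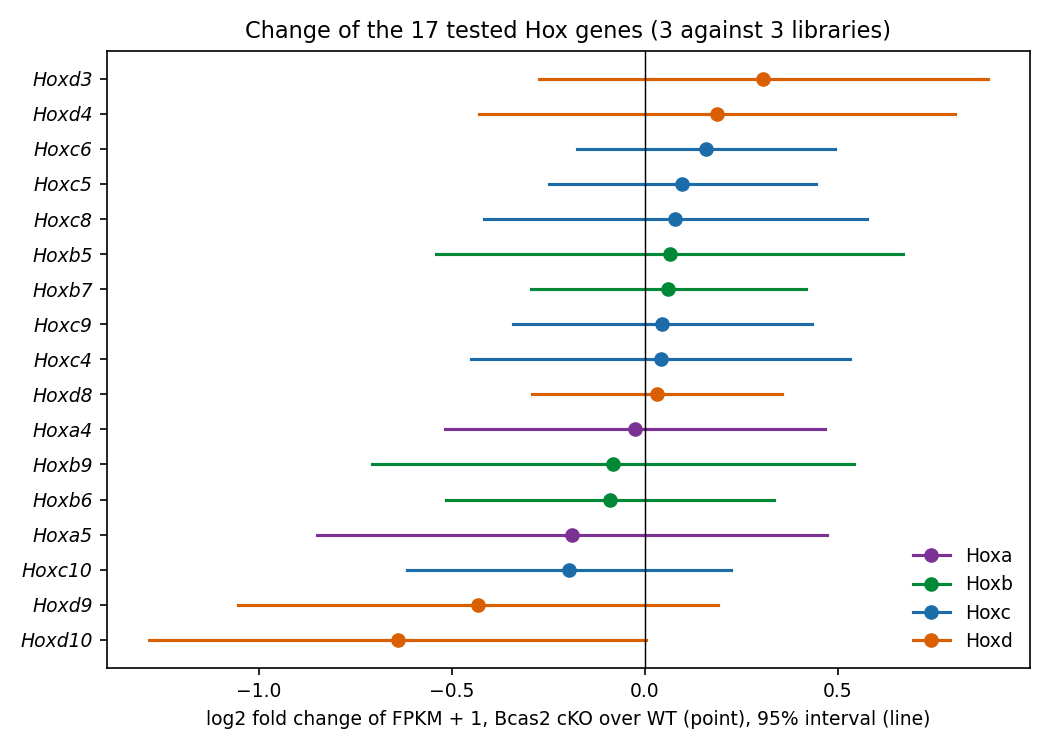
log2 fold change of FPKM + 1 in cKO over WT for the 17 tested HOX genes (points) with 95% intervals from limma (lines), coloured by cluster. Every interval contains 0, that of Hoxd10 at its upper end, and Hoxd10 and Hoxd9 have the lowest estimates (−0.64 and −0.43).

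The lowest estimates belonged to neighbouring genes toward the 5′ end of the Hoxd cluster. Hoxd10 (74514617 to 74525450), a gene of hindlimb and lumbar patterning, stood at 6.53, 3.33 and 2.57 FPKM in WT, against 2.25, 1.88 and 2.29 FPKM in cKO. Each cKO value was under the lowest WT value, and WT replicate 1 was 2.65 times the mean of the other 5. The means were 4.14 ± 2.10 and 2.14 ± 0.227 FPKM (± SD, 3 samples each), with a log2 fold change of −0.64 (SE 0.27, adjusted p = 0.955 in limma). Without WT replicate 1 the fold change was −0.33 (adjusted p = 1.00 in limma). Of the 17 tested genes it alone had groups that did not overlap, where 7.88% of all tested genes did not overlap and 3.67% did so with cKO lower. An exact two-sided permutation test of such a gene gives p = 0.1, the smallest possible with 3 against 3.

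Hoxd11 (74509902 to 74517360), next to it, was at 0.627, 0.615 and 0.389 FPKM in WT, against 0.0820, 0.353 and 0.256 FPKM in cKO, on 6 to 46 reads a library. Its groups did not overlap either, and its means were 0.544 ± 0.134 and 0.230 ± 0.137 FPKM (± SD, 3 samples each). It was too low for the main test. Without a filter its log2 fold change was −0.33 (SE 0.12, adjusted p = 0.907 in limma). The models of Hoxd10 and Hoxd11 share 2744 bases on the same strand, so reads could be shared between these rows. Which counted bases they share was not tested. Hoxa13, a hindgut and vaginal gene, was the other gene without overlap, at 3, 2 and 3 reads in WT and 0, 1 and 0 in cKO, with an adjusted p of 0.907 in limma without a filter. These 3 of the 36 detected genes were all lower in cKO. Of all genes with a read, 3.08% were lower in that way, and 7.18% did not overlap in either direction. Hoxd11 and Hoxa13 were also the 2 genes with an unadjusted p under 0.05 when no filter was set, where 3.44% of all genes with a read had one and 1.4% had one with cKO lower.

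Hoxd9 had means of 21.95 ± 8.36 FPKM in WT, against 15.5 ± 2.91 FPKM in cKO (± SD, 3 samples each), a log2 fold change of −0.43 (SE 0.26, adjusted p = 0.955 in limma). It was −0.16 without WT replicate 1 and −0.67 without WT replicate 3. Hoxd8 next to it gave 0.03 (SE 0.14, 95% interval −0.29 to 0.35), a sign that turned after rescaling to TPM and without WT replicate 3. Within libraries, the ratio of Hoxd9 to Hoxd8 was 2.15, 1.23 and 1.31 in WT and 0.896, 1.06 and 1.32 in cKO, which overlapped. The ratio of Hoxd10 to Hoxd8 was 0.451, 0.205 and 0.227 in WT and 0.153, 0.137 and 0.161 in cKO, without overlap. Without WT replicate 1 the WT means of these ratios were 1.27 and 0.216, beside cKO means of 1.09 and 0.150. At the 3′ end of the cluster the estimates had the other sign, with 0.31 (SE 0.25) for Hoxd3 and 0.19 (SE 0.26) for Hoxd4, the latter −0.12 without WT replicate 3.

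Hoxc estimates were mostly above 0, with 5 of 6 tested genes so, from −0.20 (SE 0.18) for Hoxc10 to 0.16 (SE 0.14) for Hoxc6, but Hoxc4 and Hoxc9 were below 0 after rescaling to TPM, and these and Hoxc8 without WT replicate 3. Hoxc6 means were 8.14 ± 1.17 and 9.18 ± 1.18 FPKM, and Hoxc8 means 8.34 ± 2.60 and 8.64 ± 0.932 FPKM in WT, against cKO (± SD, 3 samples each). The differences were smaller than the spread between replicates. In the Hoxb cluster the 4 tested genes lay between −0.09 and 0.06. Among all 10 Hoxb genes the cKO mean was lower in 5 and higher in 5.

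In the Hoxa cluster 9 of 11 genes had a lower mean in cKO, where 50% of all genes with a read did. Without WT replicate 1 the count was 5 of 11. That library was the highest of the 6 for 8 of the 11 Hoxa genes and for 5 Hoxb, 0 Hoxc and 3 Hoxd genes, in all 16 of 36 detected genes, against 22.8% of all genes with a read. Among the 17 tested HOX genes it was highest for 4, against 27.6% of all tested genes. WT replicate 2 was highest for 7 of the 17, against 11.7%. Hoxa9 was at 1.46 FPKM in WT replicate 1 and at 0.392 to 0.662 FPKM in the other 5 libraries, and Hoxa7 at 1.12 and 0.194 to 0.738 FPKM. Hoxa2, a gene of the branchial arches, was at 1.39 FPKM there and at 0.0973 to 0.469 FPKM elsewhere. The summed Hoxa level was 10.2 FPKM in WT replicate 1 and 4.49 to 5.46 FPKM in the others, and without that library the WT mean was 4.86 FPKM, beside 5.04 FPKM in cKO.

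**Figure D4:**
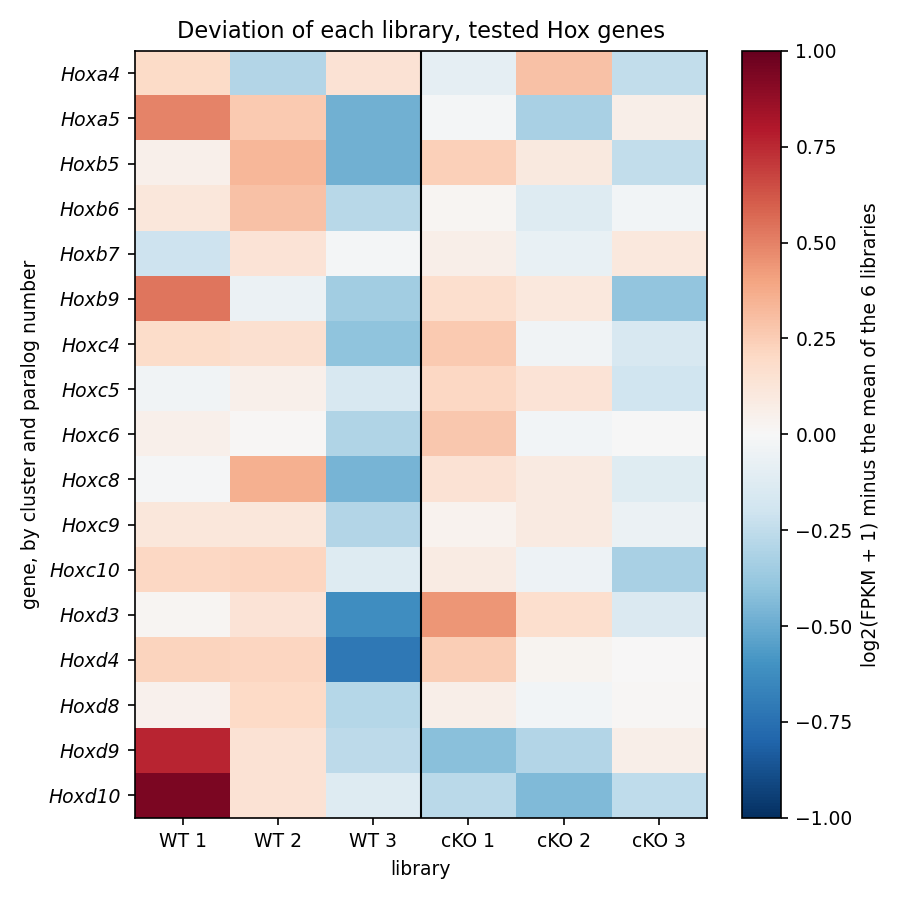
Deviation of log2(FPKM + 1) from the mean of the 6 libraries for the 17 tested HOX genes, in rows by cluster and paralog number, with the WT libraries left and the cKO libraries right of the line; red is above and blue below the mean. WT replicate 3 is the lowest library for 10 of the 17 genes (17.8% of all tested genes). WT replicate 1 is highest for 4, Hoxa5, Hoxb9, Hoxd9 and Hoxd10 (27.6% of all tested genes), and WT replicate 2 for 7 (11.7%).

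Summed HOX levels spread more among the WT samples than among the cKO samples. Single genes did not all do so, and the SD of Hoxc5 was 0.381 FPKM in WT, against 0.792 FPKM in cKO. The summed HOX level was 112.8, 96.6 and 65.7 FPKM in WT replicates 1, 2 and 3, and 88.9, 82.5 and 81.1 FPKM in cKO replicates 1, 2 and 3, so all cKO values lay inside the WT range. WT replicate 3 was the lowest library for 10 of the 17 tested genes, against 17.8% of all tested genes. The sum of Hoxd genes was 62.2, 49.7 and 33.7 FPKM in WT, against 41.1, 39.4 and 43.4 FPKM in cKO. Without WT replicate 1 the WT mean of that sum was 41.7 FPKM, beside 41.3 FPKM in cKO, and the WT mean of all HOX genes was 81.1 FPKM, beside 84.2 FPKM, which turned the direction. The sum of Hoxc genes, 28.8, 31.6 and 21.0 FPKM in WT, against 32.2, 28.5 and 25.1 FPKM in cKO, was highest in cKO replicate 1 and not in WT replicate 1.

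Sums of marker lists were set beside these sums, and some ran in a like order while others did not. From high to low, HOX sums ran WT 1, WT 2, cKO 1, cKO 2, cKO 3, WT 3, and stroma sums WT 1, WT 2, cKO 1, cKO 3, cKO 2, WT 3 (replicate numbers). Stroma markers, of which all 8 were in the table and 0 were at 0 in all libraries, summed to 338.1 to 1112 FPKM in WT, against 342.8 to 439.4 FPKM in cKO. Endothelial markers ran in the stroma order, at 36.02 to 155.0 FPKM in WT, against 42.1 to 54.5 FPKM in cKO. Pericyte and smooth muscle markers had 17.1 to 84.8 FPKM in WT, against 20.2 to 26.1 FPKM in cKO. Their sum in WT replicate 2 (23.2 FPKM) was below cKO replicates 1 and 3 (26.1 and 25.4 FPKM). Pregranulosa markers summed to 541.5, 508.2 and 415.2 FPKM in WT, against 451.0, 470.3 and 540.6 FPKM in cKO. Oocyte markers ran nearly the other way, highest in WT replicate 3 (627.3 FPKM) and lowest in WT replicate 1 (391.4 FPKM). Surface epithelium markers were lowest in WT replicate 1 (314.2 FPKM) and highest in WT replicate 2 (756.5 FPKM). What part these cell types had in the HOX values was not tested.

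Epithelial markers were also set beside the HOX genes of the tract. The 11 markers of mesonephric, oviduct and Müllerian epithelium summed to 83.4 to 96.9 FPKM in WT, against 91.5 to 111.0 FPKM in cKO. Most of each sum came from Emx2 and Epcam. Of 8 tested, 0 passed the test, 4 had an unadjusted p under 0.05 (3.04% of all tested genes) and 3, Pax8, Cldn3 and Foxj1, had all cKO values above all WT values (4.2% of all tested genes). The log2 fold change was above 0 in 7 of the 8 and below 0 in Emx2 (−0.13), whose direction turned without WT replicate 1. Among untested markers, Wnt7a and Lhx1 had a lower mean in cKO and Pax2 a higher one. Hoxa9, which is known for the oviduct, had means of 0.814 ± 0.559 FPKM in WT, against 0.491 ± 0.149 FPKM in cKO (± SD, 3 samples each). The WT mean of Hoxa9 was 0.492 FPKM without WT replicate 1, next to the cKO mean. Hoxa10 had 0.120 ± 0.0676 and 0.128 ± 0.0708 FPKM, and Hoxa11 had 2 reads at most in any library of either group.

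**Figure D5:**
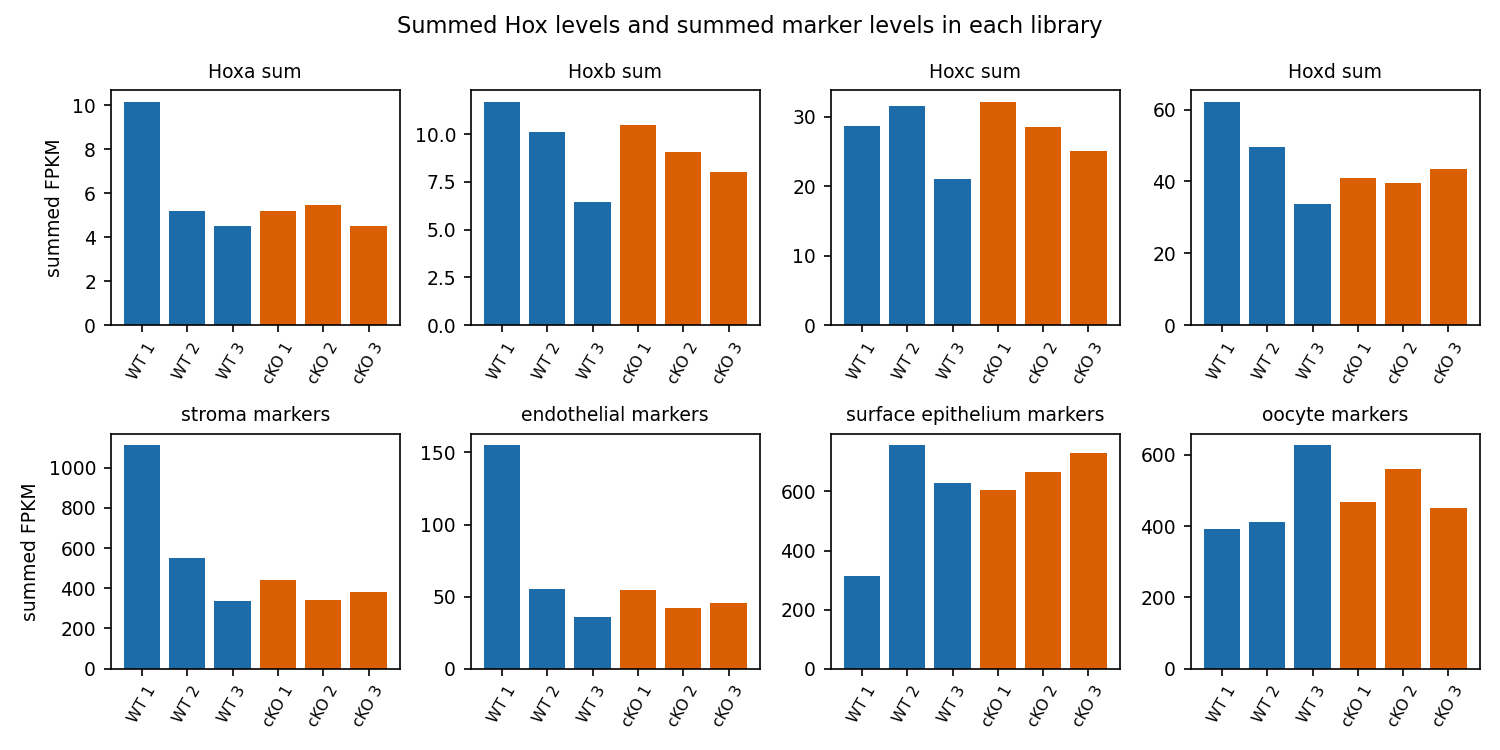
Summed FPKM of the genes of each HOX cluster (top) and of 4 marker lists (bottom) in each library; blue bars are WT and orange bars cKO libraries, and every axis starts at 0. WT replicate 1 is highest for Hoxa (10.2 FPKM), Hoxb (11.7 FPKM), Hoxd (62.2 FPKM), stroma and endothelial sums, and lowest for surface epithelium and oocyte sums.

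HOX proteins bind DNA with cofactors of the TALE homeodomain class, and these were present at higher levels than most HOX genes. The list held TALE genes and Pbxip1, a gene of a PBX-interacting protein outside that class. All 12 genes of the list were tested, none of the 12 passed (0 rose, 0 fell), and the median log2 fold change was −0.07. Pbx2, a PBX partner of HOX proteins, was at 23.4 ± 0.878 FPKM in WT, against 22.8 ± 2.14 FPKM in cKO (± SD, 3 samples each). Pknox1, another TALE partner, was the 1 gene of the 12 without overlap, where 7.88% of all tested genes had none. It was at 12.6, 11.4 and 13.3 FPKM in WT, against 10.8, 10.98 and 11.3 FPKM in cKO (adjusted p = 0.955 in limma). Pbx4 had means of 1.89 ± 0.305 and 2.496 ± 0.494 FPKM, Tgif1 12.7 ± 1.16 and 12.7 ± 0.720 FPKM, Tgif2 10.5 ± 0.698 and 11.4 ± 0.805 FPKM, and Pbxip1 14.7 ± 3.74 and 13.3 ± 1.10 FPKM. The WT mean of Pbxip1 was 12.7 FPKM without WT replicate 1, which turned its direction. Of the genes of this list with a lower mean in cKO, all but Pbx2 and Pknox1 turned without that library. The list median was not computed without it.

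Polycomb proteins keep HOX clusters silent and Trithorax proteins keep them active. A list of such genes, with the insulator gene Ctcf beside them, held 26 genes, all tested. None of the 26 passed (0 rose, 0 fell), and the median log2 fold change was −0.02. Ezh2, the histone methyltransferase of Polycomb complex PRC2, was at 11.3 ± 0.874 FPKM in WT, against 10.1 ± 0.824 FPKM in cKO. Rnf2, the ubiquitin ligase of PRC1, was at 39.6 ± 3.98 and 39.3 ± 0.698 FPKM, and Wdr5, a subunit of Trithorax-type complexes, at 42.6 ± 5.47 and 47.1 ± 5.27 FPKM. Kdm6a, a demethylase that removes the PRC2 mark, was at 19.2 ± 3.26 and 16.3 ± 1.46 FPKM (± SD, 3 samples each). Of the other named genes, the Trithorax subunit Ash2l had 33.7 ± 2.03 and 33.3 ± 1.02 FPKM, the PRC1 subunit Phc1 30.4 ± 4.32 and 29.8 ± 1.93 FPKM, and the PRC2 accessory gene Phf19 1.501 ± 0.605 and 1.04 ± 0.177 FPKM. Leaving out WT replicate 1 gave WT means of 29.3 FPKM for Phc1 and 1.17 FPKM for Phf19, which turned the direction of Phc1, and that of Kdm6a was 17.5 FPKM. Groups overlapped in all 26, where 7.88% of all tested genes did not overlap.

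Retinoic acid and caudal factors switch on HOX genes in the embryo. Of 17 genes of this list, including the even-skipped neighbours of the clusters, 8 were tested and none of the 8 passed (0 rose, 0 fell), and their median was 0.01. Aldh1a1 and Aldh1a2, which make retinoic acid, were at 252.5 ± 57.9 and 88.2 ± 20.3 FPKM in WT, against 283.8 ± 33.6 and 91.0 ± 15.6 FPKM in cKO. The retinoid receptors Rxra and Rxrb were at 12.03 ± 4.20 and 31.2 ± 4.36 FPKM in WT, against 10.2 ± 1.55 and 30.7 ± 0.773 FPKM in cKO (± SD, 3 samples each). Without WT replicate 1 the WT means were 284.6 FPKM for Aldh1a1, 95.6 FPKM for Aldh1a2 and 9.66 FPKM for Rxra, which turned the direction of all 3, and 33.2 FPKM for Rxrb. Aldh1a3, the remaining enzyme of that group, was at 2.11 ± 0.683 FPKM in WT, against 3.01 ± 0.884 FPKM in cKO, and its groups overlapped. Cyp26a1, too low to be tested, had no overlap, at 0.0310 to 0.277 FPKM in WT, against 0.280 to 0.514 FPKM in cKO. Of all genes with a read, 7.18% did not overlap in either direction. Cdx4 and Evx2 had no read in any library.

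The clusters hold 31 further transcripts, found by coordinates, of which 24 are long noncoding RNAs and 6 are microRNA genes. In this group 8 were tested, and 0 rose and 0 fell. At an unadjusted p under 0.05 in limma there were 0 of the 8, where 3.04% of all tested genes had one. Of the 31, 5 had no read, among them Hotair, a noncoding RNA of the Hoxc cluster. The highest was Gm53 in the Hoxb cluster, at 18.9, 24.8 and 13.8 FPKM in WT, against 20.7, 15.2 and 19.9 FPKM in cKO, above every Hoxb gene in all 6 libraries. Gm38462, at 5.61 to 8.17 FPKM, has a gene span on the strand opposite Hoxd8 that covers all 3319 bases of the Hoxd8 span. The strand setting of the counting is not given, so reads could be shared where counted bases overlap, which was not tested. Gm51876 was at 3.54 to 7.68 FPKM. Mira in the Hoxa cluster was at 1.65, 1.80 and 1.35 FPKM in WT, against 1.08, 1.27 and 0.812 FPKM in cKO, without overlap (adjusted p = 0.955 in limma). Of all tested genes, 7.88% did not overlap and 3.67% did so with cKO lower. Hoxa11os in that cluster, too low to be tested, was also without overlap, at no more than 2 reads in a library and 0 in cKO. Hotairm1, in the same cluster, was at 0 to 3.04 FPKM on at most 15 reads, and the pseudogene Gm11539 at 0.856 to 2.46 FPKM. Of the 31 transcripts, 17 overlap a HOX gene, 14 of them on the opposite strand.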

How the data were processed

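The authors deposited FPKM for 47122 gene models, 1 column per sample; per the submitters' processing notes the tools include HISAT2 2.0.5 and the builds are mm10 and GRCm39, and the accessions in the table belong to GRCm39. The sources used here do not name the counter, annotation, strand setting or filters. FPKM times gene length gave whole reads for 100% of the values checked, those of up to 2000 reads (within 0.05 of a read). The median-of-ratios factor over 21966 genes was 1.00 in every library, so the deposited values already carried that scaling. Columns were matched to samples by description, groups and replicate numbers by title. Genes at 1 FPKM or more in at least 3 samples were tested as log2(FPKM + 1) with limma 3.58.1 in R 4.3.3 (lmFit, eBayes with trend, two-sided), with Benjamini-Hochberg adjustment over all 14589 genes, without a replicate block. The code was tested on simulated data. Upstream sequences came from RefSeq (GRCm38.p6). Named genes were the 12 HOX genes of highest mean, those with non-overlapping groups, and, of each list, the 4 with the highest mean and the 3 with the smallest p; markers and other HOX genes are named beside them. A few genes of these lists are not reported here by name. The rule for HOX genes read symbols alone, but the choice of these members and of the lists was made with earlier results of these data known. Alternatives are given in the closing section.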

Additional observations from a re-analysis of the deposited data

How the results depend on the processing

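No HOX, TALE, Polycomb and Trithorax, or retinoic acid and caudal gene was called under any of the 16 alternatives, which were pseudocounts of 0.1 and 0.5, no filter, a filter at 5 FPKM, TPM, median-of-ratios scaling (which leaves these values as they are, by construction), quantile normalization, a replicate block, no trend, limma-voom on recovered reads, and leaving out each library. The count over all genes was 0 throughout, except 1 without cKO replicate 2, so that the range over left-out libraries was 0 to 1. The smallest adjusted p of a HOX gene in limma was 0.599, for Hoxd10 and others without WT replicate 3. At an unadjusted p under 0.05 in limma there were 2 HOX genes without a filter, Hoxd11 and Hoxa13. Of all genes with a read, 3.44% had one in that setting. Without WT replicate 3 there were 2 HOX genes, where 1056 of all 14589 tested genes had one, against 443 in the main fit. There was at most 1 HOX gene otherwise. It was Hoxd10, with pseudocounts of 0.1 and 0.5, in TPM, with quantile normalization and with the replicate block. In those settings 428 to 457 of all 14589 tested genes had one. The HOX median was −0.0083 without a filter, −0.02 in TPM and 0.11 with voom. Estimates for Hoxd10 ranged from −0.87 to −0.33 and for Hoxd9 from −0.67 to −0.16. Hoxd3, Hoxc5, Hoxc6 and Hoxc10 kept their sign too, while the other 11 tested genes changed sign in at least 1 alternative. Same-numbered samples deviated from their group means with correlations of 0.22, 0.01 and −0.03. Differently numbered samples gave −0.34 to 0.32. With 3 samples a group, these values cannot tell whether the numbers pair the samples. With the replicate block 0 HOX genes were called, and the median stayed at 0.04.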
